A study of Mus musculus with 3 samples.

Results

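The genes described here are 9 integrin subunits and Icam1, the gene of intercellular adhesion molecule 1: Itgam, Itgax, Itgal, Itgb2, Itga4, Itga5, Itgav, Itgb1, Itgb7 and Icam1. The rule that picks them uses their symbols and no measured value, although the members were chosen with earlier results of these data known. Each of the 10 symbols matched 1 of the 55536 annotated genes. RNA came from the nuclear fraction of C57BL/6J mouse macrophages grown from bone marrow, and it was sequenced as total RNA after ribosomal RNA was depleted. Every culture had received lipid A, the TLR4-binding part of bacterial lipopolysaccharide, for 12 h (100 ng/ml), then a washout of 12 h, then a second dose (100 ng/ml) that lasted 15 min before harvest. The 3 libraries, biological replicates 1 to 3, make up 1 group, so no treatment was compared and induction was not measured. All of them carry 1 donor identifier, sex and age were not collected, and replicate 2 started from less RNA (500 ng) than replicates 1 and 3 (1 µg each). The spread given below is therefore only that between these samples, which may in part be technical. The p-values refer to these samples only and do not measure that spread.

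Integrins are adhesion receptors made of 1 alpha and 1 beta subunit that join the cell surface to the actin cytoskeleton. Leukocytes carry the beta2 family, in which Itgb2 pairs with Itgal (LFA-1), Itgam (Mac-1, or complement receptor 3) or Itgax (complement receptor 4), and these receptors bind ICAM-1 on other cells. Itgb1 pairs with Itga4, Itga5 or Itgav to bind VCAM-1, fibronectin and other matrix proteins, and Itgb7 pairs with Itga4 to bind the gut addressin MAdCAM-1. Macrophages express Icam1 as well as its receptors, and its transcription is known to respond to NF-kappaB. The values below are levels of RNA in nuclei, and they do not measure receptor at the cell surface.

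Promoter sequence is shown for Icam1, the ligand, and for Itgam, the alpha subunit used to mark myeloid cells. The 250 bases before the RefSeq start site were taken from RefSeq (GRCm38.p6), on the plus strand at chr9:21015690-21015939 for Icam1 and chr7:128062390-128062639 for Itgam. Capitals mark matches to the motifs searched.
Icam1 promoter: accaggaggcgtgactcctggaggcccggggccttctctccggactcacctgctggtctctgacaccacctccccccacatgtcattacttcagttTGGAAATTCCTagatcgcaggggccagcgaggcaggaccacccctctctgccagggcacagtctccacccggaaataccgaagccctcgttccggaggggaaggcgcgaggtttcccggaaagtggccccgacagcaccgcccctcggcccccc
Itgam promoter: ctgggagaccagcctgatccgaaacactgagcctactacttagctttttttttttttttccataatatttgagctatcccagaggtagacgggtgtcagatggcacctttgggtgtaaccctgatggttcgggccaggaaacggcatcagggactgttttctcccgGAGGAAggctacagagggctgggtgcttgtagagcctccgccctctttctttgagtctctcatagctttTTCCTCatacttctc

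The RefSeq promoter table held windows for 8 of the 10 genes, each running from 250 bases before to 50 bases after the start, and Itgal and Itgb2 were not matched. The core GAGGAA, bound by the myeloid factor PU.1, was searched on both strands and was present in 5 of the 8 windows (Itgam, Itga5, Itgav, Itgb1 and Itgb7), beside 28.3% of all 32851 windows. In Itgam it lay 84 bases before the start, on the opposite strand 15 bases before it, and once more within the bases after it. The NF-kappaB consensus was matched in 0 of the 8 windows and in 8.46% of all windows. The RelA and c-Rel consensus, a second and partly overlapping form that was added after the sequences were seen, was matched in Icam1 and Itga5 and in 8.38% of all windows. The Icam1 match began 154 bases before the start, at chr9:21015786-21015795, and an overlapping match on the other strand lay 1 base further on. These are matches of letters, and binding was not measured.

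Expected counts on annotated genes came to 23826101 for replicate 1, 19312032 for replicate 2 and 21730342 for replicate 3. TPM (transcript abundance per length, scaled to a fixed sum in each library) was the unit for levels, and detection required 1 TPM or more in each of the 3 libraries. Nuclear-encoded protein-coding genes took 19.9% to 22.2% of this TPM (RSEM-format). Levels were therefore also rescaled to a fixed total (1000000) over those genes where libraries are set side by side. In the second set of deposited values (kallisto-format) rescaling changed the libraries far less evenly. There Itgb2 was 59.5, 66.4 and 15.7 TPM in replicates 1, 2 and 3 before rescaling, and 702, 451 and 538 after it. Macrophage markers were present in all libraries: 10 of 10 listed genes were detected, with a median mean TPM of 152. Of 48 listed markers of granulocytes, dendritic cells, T and B cells, mast cells and basophils, megakaryocytes, endothelial cells and fibroblasts, 1 was detected. It was Kdr, with a mean TPM of 9.61. Ly6g, Elane, Cd209a and Fcer1a were at 0, among others. The granulocyte marker Mmp8 (1.60, 1.77 and 0.85 TPM) and the dendritic cell marker Ccr7 (1.53, 0.90 and 0.87 TPM) passed 1 TPM in some libraries but not in all.

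Of the 10 genes, 9 were detected, beside 42.8% of 22015 nuclear protein-coding genes, and 8 had a mean TPM above 8.61, the median of the detected genes. Itgax was below the threshold in each library. The order of mean levels ran Itgb2, Itgb1, Icam1, Itgam, Itga4, Itgal, Itga5, Itgav, Itgb7 and Itgax. Among the 9 steps between neighbours in that order, 5 had the same direction in all 3 libraries and a mean log2 difference larger than its SD. The other 4 steps (Itgb1 to Icam1, Itgam to Itga4, Itga4 to Itgal, and Itgal to Itga5) did not differ beyond their spread. The order was taken from the same 3 libraries, so these steps describe it and do not test it.

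**Figure D1:**
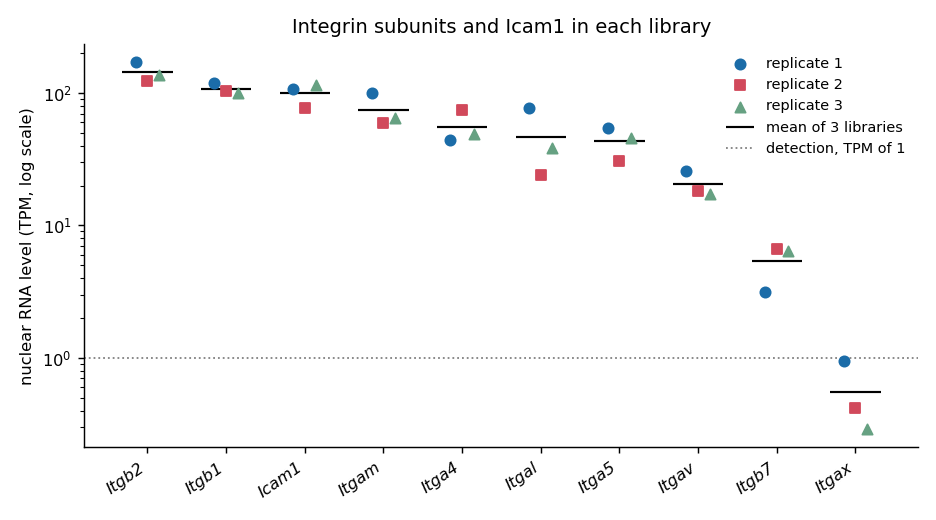
Nuclear RNA level in TPM on a log axis for each of the 10 genes, with 1 point per library, a black line at the mean of the 3 libraries and a dotted line at the detection threshold of 1 TPM. Itgb2 is highest in each library, Itgax lies below the threshold in all 3, and the points of Itgal are the most widely spread among the detected genes.

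The common beta subunit of the leukocyte integrins was the highest of the genes. Itgb2, on chromosome 10 from 77530252 to 77565708 (mm10, plus strand), measured 171 TPM in replicate 1, 124 in replicate 2 and 136 in replicate 3. Its mean was 144 ± 24.2 (SD, n = 3), from 8544 to 16807 expected counts. Its mean lay above that of 98.2% of the detected genes. Itgb1, the beta subunit of most matrix-binding integrins, on chromosome 8 from 128685654 to 128733200 (plus strand), measured 118, 103 and 100.2 TPM, a mean of 107 ± 9.75. Itgb2 was higher than Itgb1 within each of the 3 libraries. By TPM the lowest Itgb2 value was also above the highest of Itgb1. The ranges overlapped on the rescaled scale, with a lowest Itgb2 of 558 and a highest Itgb1 of 593. They also overlapped with rescaled kallisto-format values (451 and 498) and over protein-coding isoforms (104 and 117 TPM). Itgb7, the beta subunit of gut-homing lymphocytes, on chromosome 15 from 102215995 to 102231944 (minus strand), measured 3.12, 6.62 and 6.38 TPM, a mean of 5.37 ± 1.96. It rested on 181 to 297 expected counts per library and was the lowest of the 3 beta subunits throughout.

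Among the alpha partners of Itgb2, the 2 genes for LFA-1 and Mac-1 were well above that of complement receptor 4. Itgam, the Mac-1 alpha subunit, on chromosome 7 from 128062640 to 128118491 (plus strand), measured 101, 59.7 and 64.9 TPM, a mean of 75.0 ± 22.2. Replicate 1 stood above the other two. Itgal, the LFA-1 alpha subunit, on the same chromosome from 127296260 to 127335138 (plus strand), measured 77.05, 24.0 and 38.4 TPM, a mean of 46.5 ± 27.4. Its highest library was 3.21 times its lowest, the widest range of the detected members. Itgax, the gene of CD11c, which lies next to Itgam from 128129547 to 128150657 (plus strand), measured 0.95, 0.42 and 0.29 TPM, from 119, 38 and 33 expected counts. Replicate 1 was again the highest, at a value still under 1 TPM.

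The alpha partners of Itgb1 lay between 17.2 and 74.05 TPM in single libraries. Itga4, the alpha subunit of the VCAM-1 receptor, on chromosome 2 from 79255426 to 79333123 (plus strand), measured 44.0, 74.05 and 49.2 TPM, a mean of 55.8 ± 16.1. It was the only detected integrin gene above 40 TPM on average whose highest value was in replicate 2. Itga5, the alpha subunit of the fibronectin receptor, on chromosome 15 from 103344286 to 103366763 (minus strand), measured 54.0, 30.8 and 45.4 TPM, a mean of 43.4 ± 11.8. Itgav, the alpha subunit of the vitronectin receptors, on chromosome 2 from 83724397 to 83806916 (plus strand), measured 25.95, 18.1 and 17.2 TPM, a mean of 20.4 ± 4.81. Its highest library was below the lowest of Itga5, so these 2 genes did not overlap.

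Icam1, the ligand of the beta2 integrins, on chromosome 9 from 21015985 to 21028817 (plus strand), measured 107, 77.3 and 115 TPM, a mean of 99.9 ± 20.0. Replicate 2 was the lowest and the other two were close together. Icam1 lay below Itgb2 in each library, and its range overlapped that of Itgb1.

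Differences between subunits that pair, or compete for a partner, were taken within each library on the log2(TPM + 1) scale, and 11 were computed. With 3 libraries the exact two-sided sign-flip test cannot give a p below 0.25, so no difference could pass a threshold of 0.05, and a difference with 1 direction throughout gave p = 0.25 (exact sign-flip test; 0.306 after Benjamini-Hochberg adjustment over the 11). That was so for 9 of the 11. Itgb2 was above Itgb1 by 0.41 ± 0.13 (SD, n = 3), a smaller step than that from Itgb1 to Itgb7, which was 4.13 ± 0.62. As a ratio of TPM, Itgb1 was 23.0 ± 12.9 times Itgb7.

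Itgam exceeded Itgax by 5.60 ± 0.16 and Itgal exceeded Itgax by 4.80 ± 0.60. The added 1 shrinks both, since Itgax is low: the TPM of Itgam was 157 ± 60.4 times that of Itgax. Itgam was above Itgal in each library, by 0.38, 1.28 and 0.74. Itgav was below Itga5 (differences of -1.03, -0.74 and -1.35), and Itgb7 was far below its partner Itga4 (-3.45, -3.30 and -2.77). Icam1 was below Itgb2, with differences of -0.67, -0.67 and -0.24 that were smallest in replicate 3.

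The direction of Itga4 against Itga5 depended on the library. Itga4 was below Itga5 in replicate 1 (-0.29) and above it in replicates 2 (1.24) and 3 (0.11), with a mean of 0.35 ± 0.79 and p = 0.75 (exact sign-flip test). Without replicate 2 the mean difference was -0.089, with the opposite sign.

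Each beta subunit was also set against the summed level of its alpha partners among the 10 genes. Itgb2 measured 144 ± 24.2 TPM and the sum of Itgal, Itgam and Itgax 122 ± 49.8 TPM. Itgb2 was slightly below the sum in replicate 1 (-0.07) and above it in replicates 2 (0.55) and 3 (0.39), with p = 0.50 (exact sign-flip test). Itgb1, at 107 ± 9.75 TPM, was below the sum of Itga4, Itga5 and Itgav, at 120 ± 6.72 TPM, with differences of -0.07, -0.26 and -0.16. Over protein-coding isoforms only, the mean difference was 0.10, with Itgb1 above the sum. Itgb1 also pairs with subunits outside this sum, and Itgav and Itga4 pair with other beta subunits, so the sums are not a count of receptors.

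**Figure D2:**
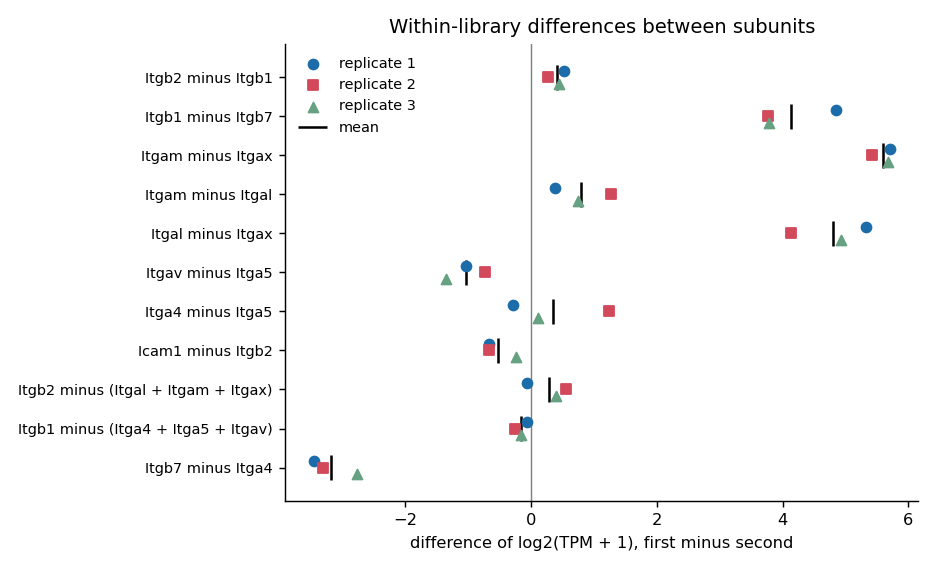
Within-library differences of log2(TPM + 1), first gene minus second, for the 11 pairs, with 1 point per library and a black tick at the mean. Points of 9 pairs fall on 1 side of 0, while Itga4 minus Itga5 and Itgb2 minus the sum of its alpha partners have points on both sides.

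The libraries differed for most of the integrin genes in the same way. On the rescaled TPM scale, Itgb2, Itgb1, Itgam, Itgal, Itga5 and Itgav were highest in replicate 1 and lowest in replicate 2, which is 6 of the 9 detected members, beside 15.2% of the 9421 detected genes. On the TPM scale the count was 4 of 9 (Itgb2, Itgam, Itgal and Itga5, beside 8.87% of detected genes), and with kallisto-format values 5 of 9 (16.1%). This order of libraries was not planned in advance but picked from these same values, so the shares describe the pattern and do not test it. Itga4 went the other way on all of these scales, highest in replicate 2 and lowest in replicate 1. Cell composition, RNA per cell and RNA input cannot be told apart as sources of this pattern in such bulk samples, and none was tested.

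Itgal carried the widest spread. Its rescaled TPM was 387, 108 and 186 in replicates 1, 2 and 3, a highest-to-lowest ratio of 3.57, which was larger than that of 99.5% of the detected genes. Itga5 (1.95) and Itgam (1.87) followed among the detected members highest in replicate 1, with ratios above those of 93.4% and 91.7% of detected genes. Itgb1 was the steadiest, with a ratio of 1.28, below the median of 1.32 over detected genes. The median ratio of the 9 detected members was 1.60.

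Other measures of the libraries differed too, and not all in that order. The summed rescaled TPM of the 10 macrophage markers was 23332, 18524 and 16372 in replicates 1, 2 and 3. Without Lyz2, the lysozyme gene and the highest of them, it was 13460, 10447 and 11092, so replicate 2 was then the lowest. Of the 10 markers, 4 were lowest in replicate 2 and 2 were highest there. The sum was 26.9, 18.5 and 11.6 for the 10 granulocyte markers, and it ran the other way for endothelial markers (22.6, 38.5 and 83.6) and for mast cells and basophils (0.75, 2.98 and 3.44). Kdr made up most of the endothelial sum, at 4.03, 8.12 and 16.7 TPM. Kit made up most of the mast cell and basophil sum, at 0.13, 0.49 and 0.65 TPM, below detection in each library. Mitochondrial mRNA took 3.67%, 5.69% and 1.87% of TPM, and replicate 2 had the smaller RNA input. Replicate 2 was the lowest library for 7 of the 9 members on the rescaled scale, beside 26.7% of detected genes. The count was 5 on the TPM scale and 6 with kallisto-format values, where the share over all detected genes was not computed. This count was not planned in advance either. The part of RNA input, mitochondrial RNA and cell composition in the spread of the integrin genes was not tested.

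**Figure D3:**
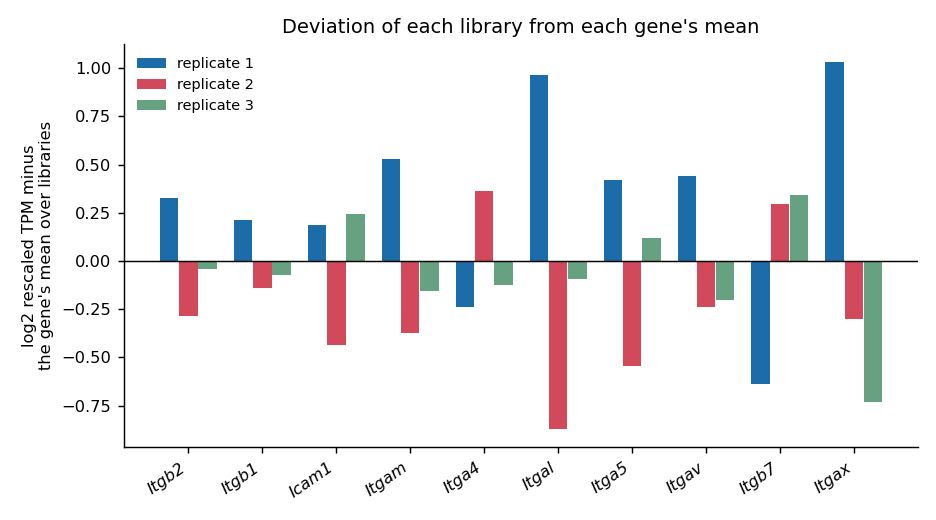
Difference between the log2 rescaled TPM of each library and the gene's mean log2 value over the 3 libraries, as bars by gene, ordered by mean level. Replicate 1 is above 0 and replicate 2 below 0 for Itgb2, Itgb1, Icam1, Itgam, Itgal, Itga5, Itgav and Itgax, and the signs are opposite for Itga4 and Itgb7.

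The annotation lists 50 isoforms of the 10 genes, of which 4 were at 0 in all libraries. Protein-coding isoforms held more of the mean TPM than any other class in each gene, although in replicate 2 they held 47.6% of Itgb7. Their share had a median over the 9 detected members of 91.0%, beside 77.9% over 9407 detected genes that have such isoforms. Retained-intron isoforms, which keep an intron in the annotated transcript, are annotated for 5 of the detected members and held a median of 8.95% of their TPM. The same median over 5980 detected genes was 23.9%, and 4 of the 5 members were below it. These medians are of RSEM-format TPM, and none was computed over all genes with kallisto-format values. With those values the retained-intron share was 41.6% for Itgb7, 28.3% for Itga5, 11.0% for Itgav, 10.6% for Icam1 and 2.07% for Itgb1.

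The isoform makeup of Icam1 varied little in the RSEM-format values. Its coding isoform Icam1-201 measured 97.7, 70.2 and 105 TPM, and the retained-intron isoform Icam1-202 measured 9.39, 7.08 and 10.3 TPM. The latter, whose second and last exon runs from 21018919 to 21021004 on chromosome 9, held 8.77%, 9.16% and 8.94% of the gene. Both isoforms were lowest in replicate 2 and highest in replicate 3, and the share stayed within a band narrower than 1 percentage point. With kallisto-format values it was 10.5%, 11.6% and 9.66%.

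Itgb7 varied more. Its main coding isoform Itgb7-201 measured 2.50, 2.45 and 3.41 TPM, and the short retained-intron isoform Itgb7-204, of 449 bases, measured 0.62, 3.47 and 2.96 TPM from 5.15, 20.7 and 25.1 expected counts. The low total of Itgb7 in replicate 1 thus came with few counts on this short isoform, which held 39.6% ± 17.3 of TPM but 7.38% of expected counts. Summed over its 4 coding isoforms, Itgb7 measured 2.50, 3.15 and 3.41 TPM, with replicate 1 still the lowest but by less.

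In the other genes with such isoforms these made up a smaller share by RSEM-format TPM. Itga5-201, the only coding isoform of Itga5, held 89.2% ± 1.44 of its TPM, and the leading retained-intron isoform Itga5-203, of 425 bases, measured 3.69, 1.68 and 2.13 TPM from 27.5 counts at most. With kallisto-format values the retained-intron share of Itga5 was 28.3% ± 1.56, against 10.3% ± 1.25 here. Itgav-201 measured 15.3, 11.2 and 9.90 TPM, the short coding isoform Itgav-205 measured 4.88, 3.43 and 2.08 TPM, and the leading retained-intron isoform Itgav-203 1.23, 1.04 and 0.98 TPM. The level of Itgav-205 is uncertain, since kallisto-format values gave it 0%, 0% and 2.14% of the gene, against 18.8%, 19.0% and 12.1% here. Itgb1-203, the only retained-intron isoform of Itgb1, stayed between 0.69 and 0.97 TPM. For Itgax, Itgax-201 measured 0.83, 0.37 and 0.26 TPM, and Itgax-204, of the retained-intron class, had 1 expected count in replicate 1 and 0 in the others.

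Itga4 has no annotated retained-intron isoform, and 4 isoforms annotated as processed transcripts held 30.1%, 27.2% and 30.4% of its TPM. Itga4-201, of 9767 bases, measured 30.8, 53.9 and 34.2 TPM, and the leading processed transcript Itga4-205 measured 5.24, 9.68 and 6.27 TPM. Both were highest in replicate 2, so the higher level of Itga4 there was not limited to 1 isoform. By expected counts the processed transcripts were 7.92% ± 0.75 of the gene.

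**Figure D4:**
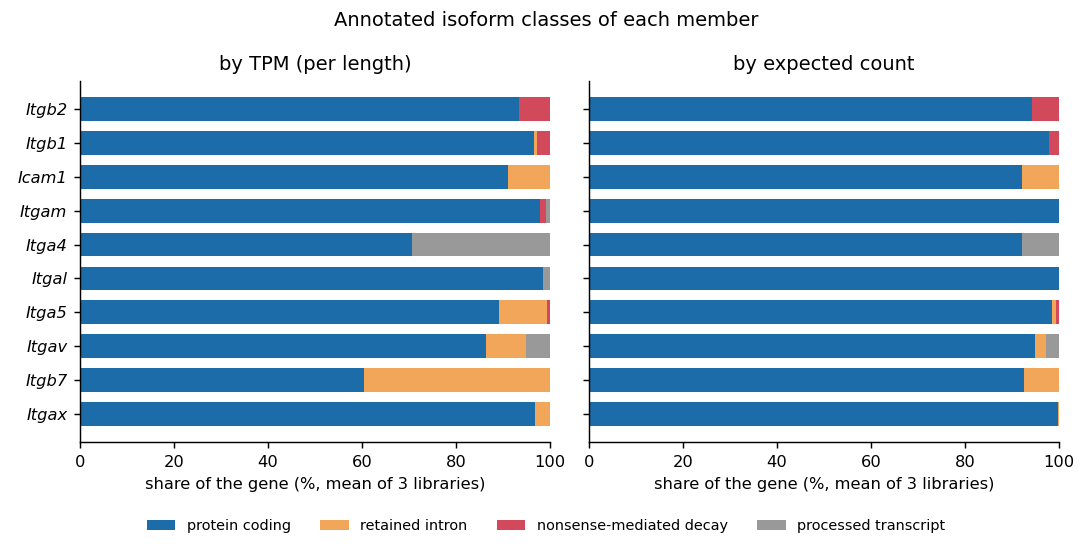
Share of each gene in 4 annotated isoform classes, as the mean of 3 libraries, by TPM on the left and by expected count on the right. The retained-intron share of Itgb7 and the processed-transcript share of Itga4 are much larger by TPM than by count, while that of Icam1 is nearly the same by both.

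Sequences of splice forms are shown where the main isoforms of a gene differ by a few bases, or where an isoform that lacks 1 exon was much higher in 1 library than in the others. They were read from the GENCODE M21 transcripts, on the plus strand, and capitals mark the 3 coding bases that 1 isoform has and the other lacks.
Itgam-201: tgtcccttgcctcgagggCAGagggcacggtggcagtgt
Itgam-203: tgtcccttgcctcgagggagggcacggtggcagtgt
Itgal-201: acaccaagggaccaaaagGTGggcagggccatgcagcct
Itgal-202: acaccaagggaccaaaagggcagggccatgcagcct

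The 3 bases in Itgam are the first of exon 14 of the 30 exons of Itgam-201, at chr7:128101634-128101636, and make up 1 whole codon of its reading frame. The coding sequences are 3462 bases in Itgam-201 and 3459 in Itgam-203, and the 2 isoforms also differ in where they start. Itgam-203, the form without the codon, measured 60.9, 36.8 and 39.2 TPM and Itgam-201 measured 36.6, 20.9 and 23.2 TPM. Their shares of the gene hardly moved between libraries, at 60.9% ± 0.64 and 35.7% ± 0.70, although the level of the gene did. With kallisto-format values the shares were 56.3% ± 2.64 and 27.8% ± 2.19, with Itgam-203 again the larger.

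In Itgal the 3 bases are the last of exon 18 of the 31 exons of Itgal-201, at chr7:127317364-127317366, again 1 whole codon, and Itgal-202, Itgal-203 and Itgal-204 all lack them. Itgal-201 measured 37.4, 12.4 and 22.3 TPM, or 52.8% ± 4.95 of the gene. Itgal-203, annotated to begin at 127309518, past 11 exons of Itgal-201, measured 24.3, 9.21 and 12.1 TPM. Itgal-202, which is built like Itgal-201 but for those bases and its ends, measured 10.2 TPM in replicate 1 and 0 in both others. In the kallisto-format values its share was 21.3% and 17.2% in replicates 1 and 2, with 0.00075% in replicate 3, so the tables differ on this isoform and its level is uncertain. Reads that do not cross the 3 bases or the ends cannot separate these isoforms.

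Isoforms of Itgb2 and Itgb1 that lack an exon and are annotated as targets of nonsense-mediated decay were singled out after their values were seen. The lines give 15 bases of the exon before the missing one in lower case and 15 bases of what follows in capitals.
Itgb2-204: gtgtggtatctgcagATCGGGGTTCCTGCA
Itgb2-201: gtgtggtatctgcagGTGTGAGTCTGGCTA
Itgb1-202: tggtgtacaaatacgGAGAACCACAGAAGT
Itgb1-201: tggtgtacaaatacgACATTTTTGCAAGAA

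Itgb2-204 lacks exon 12 of the 16 of Itgb2-201 (chr10:77559479-77559723, 245 bases, not a multiple of 3). It measured 0.69, 17.1 and 0.39 TPM, from 60.6, 1062 and 29.9 expected counts, so replicate 2 stood apart and 13.8% of its Itgb2 was given to this isoform. With kallisto-format values the shares were 1.07%, 2.36% and 0.79%, with replicate 2 still the highest but at a much smaller value. Itgb2-201 measured 165, 103 and 131 TPM.

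Itgb1-202 lacks exon 4 of the 16 of Itgb1-201 (chr8:128710253-128710475, 223 bases, not a multiple of 3). It measured 0.32, 0 and 7.66 TPM, from 31.3, 0 and 665 expected counts, and here replicate 3 stood apart. The kallisto-format shares were 0.48%, 0.74% and 15.9%, so both sets of tables placed this isoform mainly in replicate 3. Itgb1-201 measured 117, 102 and 91.3 TPM.

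**Figure D5:**
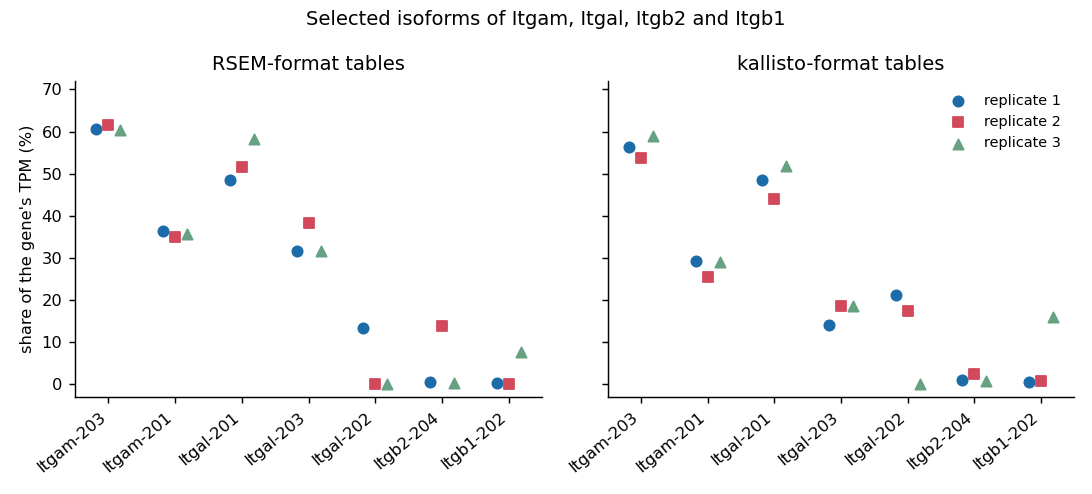
Share of the gene's TPM in 7 isoforms of Itgam, Itgal, Itgb2 and Itgb1, with 1 point per library, from the RSEM-format tables on the left and the kallisto-format tables on the right. The Itgam shares lie close together in both panels, Itgb2-204 stands out in replicate 2 only on the left, and Itgb1-202 stands out in replicate 3 in both.

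Some members overlap other genes, and the sources used here do not say whether counting used the strand, so the reads of overlapping genes may not be fully separated. Gm49368, a protein-coding gene model on the same strand that has 29 exons with the same coordinates as exons of Itgam, measured 1.16, 0.49 and 0.67 TPM, so its split from Itgam is uncertain. On the opposite strand, Cerkl overlaps the end of Itga4 and measured 2.56, 1.99 and 3.45 TPM, from 56.3, 78.6 and 101 expected counts. It was lowest in replicate 2 by TPM and in replicate 1 by counts, and sharing of reads with Itga4 was not tested. Gm47079 over Icam1 and Gm13684 and Dnmt3l-ps1 over Itgav did not exceed 1.27 TPM.

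The 9 member subunits accounted for 92.2%, 87.2% and 90.4% of the summed TPM of 26 integrin subunit genes. Of the 17 other subunits, 3 were detected, beside 42.8% of all nuclear protein-coding genes. Itga6, a laminin receptor subunit, measured 20.98, 36.0 and 23.8 TPM, Itgb5, a partner of Itgav, 23.0, 24.4 and 20.8 TPM, and Itga9 3.98, 2.32 and 2.71 TPM. Itga6 was highest in replicate 2, as Itga4 was. Itgb3, the other well-known partner of Itgav, was not detected, at 0.28, 0.60 and 0.30 TPM.

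Ligands other than Icam1 were mostly absent or low. Of 18 listed, 5 were detected, beside 42.8% of all nuclear protein-coding genes, and 5 were at 0 in all libraries. Spp1, which encodes osteopontin, measured 265, 341 and 220.3 TPM, and C3, the source of the iC3b fragment that Mac-1 binds, 123, 73.3 and 121 TPM. Mfge8, an Itgav ligand on apoptotic cells, measured 14.1, 10.4 and 10.5 TPM, and Icam2, the lowest of those detected, 2.19, 2.11 and 2.04 TPM. The median over the list was 0.13 TPM, beside 0.37 TPM over all 22015 nuclear protein-coding genes.

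Genes that link integrins to the cytoskeleton, or that promote or restrain their activation from inside the cell, were mostly detected. Of the 28 talin, kindlin and adaptor genes, 19 were detected, beside 42.8% of all nuclear protein-coding genes. The adaptor Fyb led with 337, 366 and 353 TPM, followed by talin 1 (Tln1) with 141, 159 and 149 TPM and filamin A (Flna) with 115, 92.5 and 105 TPM, and Vcl, the vinculin gene, was the lowest detected at 2.24, 2.20 and 1.84 TPM. The SDs of these 3 leading genes were 14.3, 8.76 and 11.3 TPM, beside 9.75 TPM for Itgb1, and were below those of Itgb2, Icam1 and Itgam (20.0 to 24.2 TPM). Of the 28 Rap1 and signalling genes, 25 were detected, led by Cdc42 (111, 166 and 91.9 TPM), Syk (102, 117 and 128 TPM) and Lyn (98.1, 92.3 and 89.2 TPM). The SDs of Cdc42, Syk and Lyn were 38.7, 12.8 and 4.51 TPM, so that of Cdc42 was above those of Itgb2, Icam1 and Itgam. Rap1gap, which turns Rap1 off, was the lowest detected signalling gene at 1.18, 1.88 and 2.04 TPM. The median level was 10.9 TPM for the adaptor list and 16.0 TPM for the signalling list, beside 0.37 TPM over all nuclear protein-coding genes.

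The genes most like the 3 highest members were found among 9420 other detected protein-coding genes by the Euclidean distance of log2(TPM + 1) over the 3 libraries, which reads level and library pattern together. Nearest to Itgb2 were Slc11a1 (distance 0.15; 186, 116 and 136 TPM) and Pkm (0.16; 158, 134 and 132 TPM). Nearest to Itgb1 were Macf1 (0.17; 107, 105 and 95.1 TPM) and Flna (0.17). Nearest to Icam1 were C3 (0.23) and Rps9 (0.26; 124, 84.4 and 108 TPM). With 3 libraries this measure holds little beyond the level itself.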

How the data were processed

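Nuclear RNA of 1 group of 3 libraries was analysed. The authors' notes name the mm10 assembly and GENCODE M21 annotation. Names and versions of their tools are not stated in the sources used here, so the tables are called RSEM-format and kallisto-format after their columns. The authors deposited expected counts (estimated, not normalised), TPM (scaled to a fixed sum per library) and FPKM (per length and depth) for each library, with transcript tables of estimated counts and TPM. The libraries were distinct: over genes with at least 50 counts, each pair of libraries differed by more than sampling noise.

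TPM was compared as log2(TPM + 1). Rows that name no annotated gene (0.827%, 0.275% and 0.0547% of expected counts) were left out. For rescaling, TPM was divided by its sum over nuclear protein-coding genes. Isoform shares are percentages of the summed isoform TPM. Differences were given a sign-flip p (exact, two-sided), adjusted over 11 pairs; the functions were tested on simulated data. Depth was 19312032 to 23826101 counts, and intervals of counting error were not computed. The named genes were all members, isoforms with at least 10% of a gene's mean TPM, leading retained-intron isoforms, and the 3 highest and the lowest detected gene of each list. Others were named outside this rule, among them Itgb3, Itgal-202, the exon-lacking isoforms, some cell type markers and genes that overlap members. Members and lists were chosen with earlier results of these data known. Alternatives covered the pseudocount, unit, scaling, isoform class, quantification and omission of each replicate. Protein sequences were not used here. Python 3.11.15, pandas 2.3.3, numpy 2.4.6 and scipy 1.17.1 were used.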

Additional observations from a re-analysis of the deposited data

How the results depend on the processing

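Of the 99 recomputed differences between subunits (9 alternatives for each of 11), 97 kept their direction. Itga4 minus Itga5 changed sign without replicate 2, to -0.089 from 0.35, and ranged from -0.089 to 0.68 with 1 replicate left out. Itgb1 minus the sum of Itga4, Itga5 and Itgav changed sign when only protein-coding isoforms were summed, to 0.10 from -0.16. The number of members detected was 8 with a threshold of 5 TPM, 10 on both rescaled scales and 9 under the other 5 alternatives. On the rescaled scales Itgax passes 1 because all values of a library are raised. With kallisto-format values the libraries were raised by unlike factors. There Itgax went from 0.40 to 4.76 in replicate 1 and from 0.039 to 1.33 in replicate 3. Of 70 recomputed levels 29 moved by more than 1 SD, 28 of them on FPKM or a rescaled total, whose units differ. Of 80 recomputed isoform shares 24 moved by more than 1 SD, 12 with kallisto-format values and 12 with expected counts. The order of Itga4, Itgal and Itga5 changed between single libraries. The differences are already taken within each library, and with 1 group there is no second group to block by replicate number. The sign-flip test over 3 libraries cannot pass 0.05, and levels from under about 300 counts (Itgb7, Itgax) are the least precise.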
